A study of Mus musculus with 21 samples.

Results

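Collagens are the genes whose symbol is Col, a type number, the letter a and a chain number, and 41 of the 19057 genes with a probe of 1 symbol on the array met that rule. The 41 genes had 91 probes, and each gene was read from the probe with the highest mean over all 21 arrays. The deposited log2 values were used. A probe was tested if it lay above its array's background level, a log2 value of 6.60, on at least 3 arrays. Of the 41 collagens 34 passed and 7 did not, and 13 were above background on all 21 arrays. No probe of Col6a3, Col12a1, Col20a1 or Col21a1 was named in the annotation used here.

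The RNA came from C2C12, a mouse myoblast line whose dividing myoblasts (MBs) fuse into multinucleated myotubes (MTs) once serum is lowered. The 7 groups of 3 arrays were MTs carrying an shRNA against NET39, TMEM38A, WFS1 or TMEM214, MTs carrying the control shRNA, untransduced MTs and untransduced MBs. MBs were collected at day 0 and all MTs at day 6 of differentiation, with tetrodotoxin added to stop contraction, and MTs were detached from mononucleated cells by brief trypsin. The shRNA lines were made with lentivirus and puromycin in MBs, 1 line for each shRNA, so the loss of a target cannot be told apart from any other property of its line. The 4 targets are transmembrane proteins of the nuclear envelope. The labels name a non-target shRNA in the control line. The scanner header calls it empty, and the paper's legends to its array comparisons name an empty vector. These sources differ, and which it carried is not settled.

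A collagen molecule is a triple helix of alpha chains, each chain the product of its own gene. Chains are hydroxylated and glycosylated in the endoplasmic reticulum, secreted as procollagen, trimmed and, in fibrils, cross-linked. In muscle, fibrillar collagens I, III and V form the connective tissue between fibres, networks of collagen IV form the basement membrane on each fibre, and collagen VI links the basement membrane to the fibrils around it. Fibril-associated collagens (FACITs) bind fibril surfaces, short-chain collagens VIII and X form lattices, and transmembrane collagens sit in the plasma membrane. The 34 tested genes were 11 of 11 fibrillar, 6 of 8 basement membrane, 2 of 5 beaded filament (collagen VI), 6 of 7 FACIT, 4 of 4 transmembrane, 3 of 3 short-chain and 2 of 3 other collagens.

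The promoters of 3 genes that led the changes in different classes are shown because their motif matches differ. They are the 250 bases before the annotated start (RefSeq, GRCm38.p6) of Col3a1 at chr1:45311288-45311537 on the plus strand, of Col6a1 at chr10:76726045-76726294 on the minus strand and of Col8a1 at chr16:57754738-57754987 on the minus strand, none within an annotated gene. Capitals mark matches, on either strand, to the CCAAT box of that name, the GC box (GGGCGG), the TATA box (TATAAA), the E-box of myogenic factors (CAGCTG), a short SMAD element (CAGAC) and the AP-1 element (TGACTCA). None of these motifs contains another, and a match on the other strand appears as its reverse complement.
Col3a1: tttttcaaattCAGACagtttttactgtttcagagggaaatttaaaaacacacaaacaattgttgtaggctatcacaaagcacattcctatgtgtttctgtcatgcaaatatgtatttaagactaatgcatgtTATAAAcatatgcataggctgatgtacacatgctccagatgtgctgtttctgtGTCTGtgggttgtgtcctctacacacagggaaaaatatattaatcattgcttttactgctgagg
Col6a1: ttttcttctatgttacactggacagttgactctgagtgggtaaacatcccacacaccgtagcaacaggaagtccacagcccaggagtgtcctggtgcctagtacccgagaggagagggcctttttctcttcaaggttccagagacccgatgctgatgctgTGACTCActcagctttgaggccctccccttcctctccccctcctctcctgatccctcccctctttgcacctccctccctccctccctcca
Col8a1: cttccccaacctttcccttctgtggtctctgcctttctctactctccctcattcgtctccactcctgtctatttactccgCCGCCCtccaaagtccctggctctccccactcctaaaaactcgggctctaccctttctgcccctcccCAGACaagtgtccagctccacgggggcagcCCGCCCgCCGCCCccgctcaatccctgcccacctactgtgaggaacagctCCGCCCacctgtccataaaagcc
The Col3a1 window held TATAAA at position -117 from the start and CAGAC at -239 and -64. The Col6a1 window held TGACTCA alone, at -90. The Col8a1 window held GGGCGG at -170, -73, -66 and -23 and CAGAC at -103. Of the 41 collagens 33 had a promoter in the table, 28 of them tested. A gene with several windows was counted as holding a motif if any of them did. The tested collagens had passed the signal filter, whereas the shares of all genes include genes that were not tested, so these sets are unlike. GGGCGG occurred in 18 of these 28 genes (64.3%) and in 35.4% of all 27025 genes in the table, CCAAT in 12 (42.9%) and 37.5%, CAGAC in 13 (46.4%) and 45.8%, CAGCTG in 5 (17.9%) and 14.7%, TATAAA in 5 (17.9%) and 14.3%, and TGACTCA in 1 (3.57%) and 5.16%.

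Col4a1 and Col4a2, the chains of the ubiquitous collagen IV, start head to head on chromosome 8. Their genes run from 11198423 to 11312889 on the minus strand and from 11312805 to 11449287 on the plus strand, and their promoter windows in the RefSeq table share 78 bases. The 30 bases at chr8:11312761-11312790, read on the Col4a2 strand, are shown with the CCAAT at -32 of Col4a2 in capitals, which lies within the annotated Col4a1 gene. The CCAAT match in the Col4a1 window was another one, at -145 of Col4a1.
Col4a2: ccgaggagctccCCAATttgttggcgctgc
Other members also lie near each other. Col3a1 and Col5a2 are 24.6 kb apart on chromosome 1, and Col6a1 and Col6a2 are 85.2 kb apart on chromosome 10, with Col18a1 429 kb from Col6a2.

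Mean scanner intensity was 301 to 533 on the 15 shRNA arrays and 172 to 289 on the 6 untransduced arrays, and transduction cannot be told apart from this difference in brightness. MB replicate 1 had 411 genes more than 1 log2 unit from the mean of the other MB arrays, against 73 at most on any other array. Each shRNA line had less of its own target than the control line, with log2 ratios of -1.44 for Plpp7 (the gene of NET39), -3.86 for Tmem38a, -3.54 for Wfs1 and -0.94 for Tmem214 (adjusted p 3.27e-14 to 2.94e-07). The TMEM214 line also had less Wfs1 (-1.03), Plpp7 (-0.96) and Tmem38a (-0.57), and the TMEM38A line less Wfs1 (-0.70). Myotube markers were above background on all MT arrays (5 of 5 with a probe). In bulk RNA, fewer cells of a type and less RNA per cell cannot be told apart. The 6 comparisons were each knockdown over control MTs, control over untransduced MTs, and untransduced MTs over MBs. Differences are log2 ratios of the first group over the second from 1 limma fit to 13769 genes, and a gene was called at a Benjamini-Hochberg adjusted p below 0.05 where the log2 ratio also passed 0.5 in size. The values are not background-subtracted, which shrinks the ratios of dim genes.

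**Figure D1:**
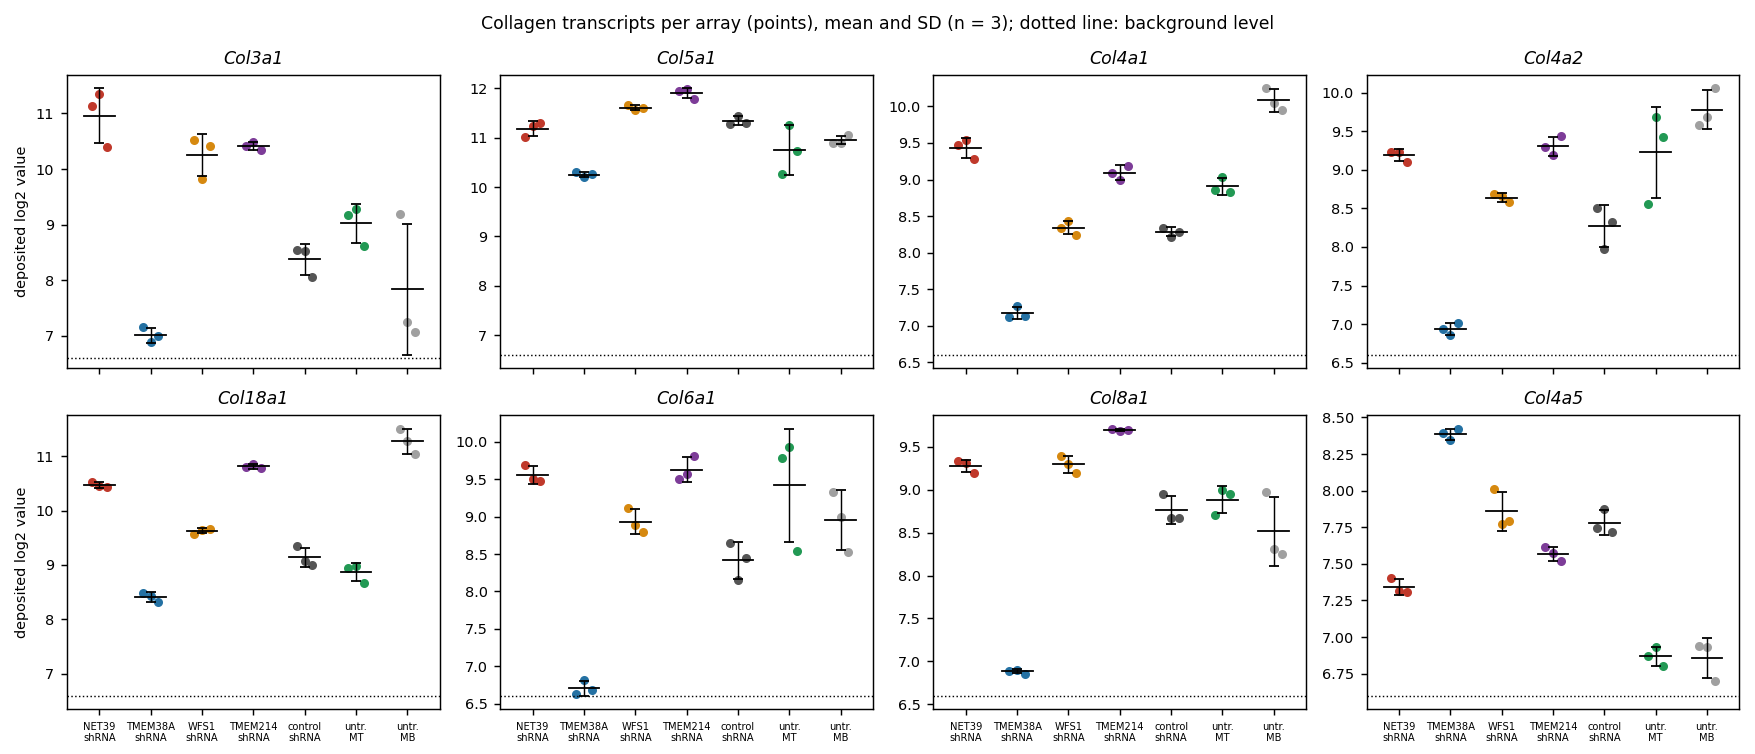
Deposited log2 values of 8 collagens on each array (points, 3 per group), with the group mean and SD (bars) and the background level (dotted). In 7 of the panels the TMEM38A shRNA MTs are the lowest of the shRNA lines, and in the Col4a5 panel they are the highest.

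Some markers of fibroblasts, dividing myoblasts and myotubes also differed between the groups. Over all tested genes 3.48% were called higher and 3.06% lower in the NET39 line, and 2.89% and 4.06% in the TMEM38A line. The shares were 3.11% and 2.91% in the WFS1 line and 3.77% and 3.04% in the TMEM214 line. They were 4.28% and 4.15% in control over untransduced MTs and 11.5% and 13.0% in MTs over MBs. Of 6 fibroblast genes 4 were tested, and 2, Dcn and Pdgfrb, rose in the NET39 line (2.50 and 0.77) and the TMEM214 line (1.84 and 0.83), fell in the TMEM38A line (-1.07 and -0.60) and fell in control over untransduced MTs (-1.69 and -0.56), with 0 called in the WFS1 line. In MTs over MBs Dcn rose by 2.25. Over untransduced MTs Dcn stayed called in the NET39 line (0.82) but was at 0.16 in the TMEM214 line, not called. Pdgfrb was called in neither line over untransduced MTs (0.21 in NET39 and 0.27 in TMEM214). Dcn (-2.76) and Pdgfrb (-1.16) stayed lower in the TMEM38A line over untransduced MTs. As a mean of its probes Dcn was at -0.496 in the TMEM38A line over control MTs, not called. The list's summed linear level was 1982 to 2133 in NET39, 1544 to 1594 in TMEM214, 622 to 656 in TMEM38A, 775 to 813 in WFS1, 797 to 844 in control MTs, 1279 to 1630 in untransduced MTs and 750 to 800 in MBs, with Thy1 above background on no array of these groups. Of 3 tested genes of dividing myoblasts, Cdc20 was higher in the NET39 (1.29) and TMEM214 (0.76) lines and Id1 lower in the TMEM38A line (-0.96). Over untransduced MTs Cdc20 was at 0.78 in the NET39 line, called, and at 0.25 in the TMEM214 line, not called (adjusted p 0.373). As a mean of its probes it was at 0.39 in the TMEM214 line over control MTs, not called. The dividing myoblast list summed to 736 to 851 in NET39, 618 to 679 in TMEM214, 433 to 445 in TMEM38A, 491 to 546 in WFS1, 562 to 609 in control MTs, 543 to 731 in untransduced MTs and 2598 to 4273 in MBs, with Pax7 at background in all 5 shRNA groups. Myotube markers summed to 24557 to 25432 in NET39, 24588 to 26664 in TMEM214, 29140 to 30899 in TMEM38A, 27656 to 32891 in WFS1 27303 to 30976 in control MTs and 37446 to 39247 in untransduced MTs. Of the 5 tested, Ckm, muscle creatine kinase, was lower in NET39 (-0.61) and TMEM214 (-0.79) and higher in TMEM38A MTs (0.80), Tnnt3, fast troponin T, was lower in TMEM214 MTs (-0.62), Myog, myogenin, lower in TMEM38A MTs (-0.66), and Mymk, the fusion gene myomaker, lower in WFS1 MTs (-0.50) and in control over untransduced MTs (-1.01). Medians of the list were -0.27 (NET39), -0.13 (TMEM38A), -0.05 (WFS1), -0.08 (TMEM214) and -0.39 (control over untransduced MTs). Single arrays decided some of these marker calls: that of Pdgfrb in the TMEM38A line were lost without any 1 control or TMEM38A array (adjusted p 0.0711 to 0.130), that of Ckm in the NET39 line without NET39 replicate 1 (-0.47) and that of Mymk in the WFS1 line without control or WFS1 replicate 1 or 3 (-0.43 to -0.47). The part of these cells in the collagen differences was not tested. No osteoblast, adipocyte, endothelial or macrophage marker was called in these 6 comparisons, and of 3 chondrocyte genes tested only Sox9 was, lower in the WFS1 line (-1.08), in control over untransduced MTs (-0.64) and in MTs over MBs (-0.54). Without untransduced MT replicate 1, Sox9 in control over untransduced MTs was at -0.48, and in MTs over MBs it was at -0.44 to -0.49, not called, without MB replicate 1 or MT replicate 2 or 3. Pdgfrb in control over untransduced MTs was not called without untransduced MT replicate 2 or 3 or any 1 control array (adjusted p 0.0900 to 0.258), and was at -0.92 without untransduced MT replicate 1. Under median scaling Pdgfrb, Sox9 and Mymk turned positive in control over untransduced MTs, at 0.27, 0.74 and 0.34.

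In NET39 shRNA MTs 10 of the 34 tested collagens rose and none fell, against 3.48% higher and 3.06% lower over all tested genes. They were Col3a1, the 3 main basement membrane genes Col18a1, Col4a1 and Col4a2, Col6a1, the FACIT Col16a1, the fibrillar Col5a2, Col1a1 and Col1a2, and Col8a1. The median log2 ratio of the 34 was 0.04, against -0.01 for all genes, and 24 were not called. Under median scaling 7 were called higher and 1 lower, and with background correction 10 and 2 (offset 50) or 9 and 3 (offset 16).

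Col3a1, the chain of the fibrillar collagen of extensible tissue, had log2 values of 11.13, 11.35 and 10.40 in NET39 shRNA MTs, against 8.54, 8.53 and 8.05 in control MTs. The groups did not overlap, and the rise of 2.59 (SE 0.40, 6.01-fold) had an adjusted p of 2.25e-04. A second, dimmer Col3a1 probe rose by 1.16. Col18a1, whose product carries endostatin at its end, had 10.53, 10.44 and 10.44 in NET39 shRNA MTs, against 9.35, 9.07 and 9.01 in control MTs (1.33, SE 0.11, adjusted p 1.78e-07). Every NET39 array was above every control array, and a second Col18a1 probe rose by 0.57.

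Col4a1 had 9.47, 9.54 and 9.28 in NET39 shRNA MTs and 8.34, 8.22 and 8.29 in control MTs (1.15, SE 0.09, adjusted p 1.08e-07). Its partner Col4a2 had 9.24, 9.23 and 9.11, against 8.51, 7.97 and 8.33 (0.92, SE 0.20, adjusted p 0.00421). Both chains of collagen IV were thus higher on all 3 NET39 arrays. Col6a1 had 9.69, 9.50 and 9.48 in NET39 shRNA MTs and 8.65, 8.15 and 8.45 in control MTs (1.14, SE 0.27, adjusted p 0.00637), whereas Col6a2 changed by 0.22 and was not called. Under median scaling the adjusted p of Col6a1 was 0.0587. Col16a1 had 7.65, 7.80 and 7.73, against 7.10, 7.10 and 6.94 in control MTs (0.68, adjusted p 4.86e-04).

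The remaining rises lay just above the limit, at 0.56 for Col5a2, 0.53 for Col1a1, 0.52 for Col1a2 and 0.52 for Col8a1, and each of these 4 calls was lost when some single arrays were left out. Without NET39 replicate 1 they were at 0.41, 0.49, 0.44 and 0.49, and 6 collagens were called in place of 10. Without control replicate 1, 8 were called, without control replicate 2 or 3 or NET39 replicate 2, 7 were, and without NET39 replicate 3 all 10. Col3a1, Col18a1, Col4a1, Col4a2, Col6a1 and Col16a1 stayed called without any 1 array. With all arrays, a second Col5a2 probe of similar brightness (mean 7.33 against 7.53) rose by 0.79 and was called.

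Over control MTs, TMEM214 shRNA MTs had the most collagens called of the 4 lines. Of the 34, 13 rose and 1 fell, against 3.77% higher and 3.04% lower over all tested genes, and the median was 0.08, against -0.01 for all genes. They covered 5 fibrillar genes, 3 of the basement membrane, both tested chains of collagen VI, both chains of collagen VIII and Col16a1.

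Col3a1 had 10.41, 10.49 and 10.35 in TMEM214 shRNA MTs, against 8.54, 8.53 and 8.05 in control MTs (2.04, SE 0.40, 4.12-fold, adjusted p 0.00166). Its second probe rose by 0.62. Col18a1 had 10.81, 10.86 and 10.77, against 9.35, 9.07 and 9.01 in control MTs (1.68, SE 0.11, 3.19-fold, adjusted p 1.35e-08), and its second probe rose by 0.64. These 2 genes had the largest rises here as in the NET39 line, whose comparison shares the control arrays.

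Col6a1 had 9.50, 9.57 and 9.81 in TMEM214 shRNA MTs and 8.65, 8.15 and 8.45 in control MTs (1.21, SE 0.27, adjusted p 0.00398). Col8a2, a chain of the short-chain collagen VIII, had 8.41, 8.29 and 8.73, against 7.51, 7.28 and 7.31 in control MTs (1.11, SE 0.13, adjusted p 1.11e-05), while neither of its dimmer probes was called and the mean of its probes was at 0.46. Col4a2 had 9.30, 9.19 and 9.43, against 8.51, 7.97 and 8.33 in control MTs (1.04, SE 0.20, adjusted p 0.00165). In none of these genes did the groups overlap. Col8a1 had 9.71, 9.69 and 9.69 in TMEM214 shRNA MTs and 8.95, 8.67 and 8.67 in control MTs (0.94, SE 0.14, adjusted p 1.37e-04).

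Smaller rises were those of Col16a1 (0.91), Col6a2 (0.85), Col1a2 (0.81), Col4a1 (0.81), Col5a2 (0.74), Col1a1 (0.71) and Col5a1 (0.57). The only fall was that of Col22a1, a FACIT of the myotendinous junction, by 0.58 (adjusted p 0.00610). Without control replicate 1 or 3 or TMEM214 replicate 1 or 2, Col5a1 lost its call (adjusted p 0.0677 to 0.0787), and 13 or 14 collagens were called whichever array was left out.

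In TMEM38A shRNA MTs the collagens moved the other way: 10 fell and 2 rose, against 4.06% lower and 2.89% higher over all tested genes. The median of the 34 was -0.09, and that of all genes 0.00. Under median scaling, which moved the median of all genes by -0.15 here, 14 were lower and 0 higher.

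Col8a1, the other chain of collagen VIII, had 6.89, 6.90 and 6.86 in TMEM38A shRNA MTs, against 8.95, 8.67 and 8.67 in control MTs, a log2 ratio of -1.88 (SE 0.14, 3.68-fold lower, adjusted p 4.19e-08). Col6a1 had 6.63, 6.82 and 6.68, just above background, against 8.65, 8.15 and 8.45 in control MTs (-1.70, SE 0.27, 3.26-fold lower, adjusted p 1.81e-04). Col3a1 had 7.15, 6.88 and 7.00, against 8.54, 8.53 and 8.05 in control MTs (-1.36, SE 0.40, adjusted p 0.0251), and its second probe was at -0.46, not called. All 3 genes were lower on every TMEM38A array than on any control array.

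Col4a2 had 6.94, 6.86 and 7.01 in TMEM38A shRNA MTs and 8.51, 7.97 and 8.33 in control MTs (-1.33, SE 0.20, adjusted p 1.50e-04). Col4a1 had 7.12, 7.26 and 7.13, against 8.34, 8.22 and 8.29 (-1.11, SE 0.09, adjusted p 7.68e-08). Both chains of the head-to-head pair were lower on all 3 TMEM38A arrays. Col5a1, the chain of the collagen that nucleates fibrils, had 10.30, 10.20 and 10.26 in TMEM38A shRNA MTs and 11.28, 11.44 and 11.30 in control MTs (-1.09, SE 0.16, adjusted p 9.34e-05). Over untransduced MTs Col5a1 was at -0.49 (adjusted p 0.0252), just short of the log2 limit and so not called.

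Col18a1 (-0.73), Col8a2 (-0.65), Col5a2 (-0.60) and Col1a1 (-0.59) also fell. As means of their probes Col18a1 (-0.33), Col8a2 (-0.25) and Col5a2 (-0.20) were not called. The Col5a2 mean includes probes near the background level (means 6.52 to 6.59). A second bright Col5a2 probe was at -0.41, not called. In the TMEM38A line 2 of 3 values of Col1a1 were not above background, so that its level there is at the background. Col4a5, an X-linked chain of another collagen IV network, rose by 0.60 (adjusted p 8.36e-06), and Col7a1, of anchoring fibrils, by 0.50 (adjusted p 0.00845). A second Col4a5 probe was at 0.31 and the mean of its probes at 0.46, neither called. The Col3a1 call was lost without control replicate 1 or 2 or any 1 of the TMEM38A arrays (adjusted p 0.0525 to 0.0839). That of Col5a2 was lost without control replicate 1 or 3 or any 1 TMEM38A array (0.0561 to 0.0886), that of Col7a1 without control replicate 1 or 3 or TMEM38A replicate 1 or 3 (ratio 0.45 to 0.49) and that of Col1a1 without control replicate 3 (-0.48). Between 9 and 11 collagens were called in these fits.

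Over control MTs, WFS1 shRNA MTs had the fewest collagens called, although over untransduced MTs 8 were called in them and 6 in NET39 shRNA MTs. Over control MTs 3 collagens rose and 1 fell, against 3.11% higher and 2.91% lower over all tested genes. The median was 0.06, against -0.02 for all genes. Col3a1 had 10.52, 9.81 and 10.41 in WFS1 shRNA MTs, against 8.54, 8.53 and 8.05 in control MTs (1.87, SE 0.40, 3.67-fold, adjusted p 0.00344), and its second probe changed by 0.44 and was not called.

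Col13a1, a transmembrane collagen of the neuromuscular junction, had 6.87, 6.98 and 6.97 in WFS1 shRNA MTs, against 7.89, 8.07 and 7.95 in control MTs (-1.03, SE 0.09, adjusted p 6.56e-07). Untransduced MTs had 7.25, 6.81 and 6.79, so that the WFS1 line lay at the untransduced level (-0.01, adjusted p 0.960) and the control line above both. Col16a1 had 7.75, 7.69 and 7.69 in WFS1 shRNA MTs and 7.10, 7.10 and 6.94 in control MTs (0.67, adjusted p 5.20e-04). Col8a1 had 9.40, 9.30 and 9.19, against 8.95, 8.67 and 8.67 in control MTs (0.53, adjusted p 0.0131), a call lost without control replicate 2 or 3 or WFS1 replicate 1 (adjusted p 0.0557 to 0.0575). Neither chain of collagen IV was called, at 0.06 for Col4a1 and 0.37 for Col4a2. Col6a1 was at 0.52, past the log2 limit, but was not called. Another Col6a1 probe of similar brightness (mean 8.78 against 8.80) rose by 0.85 in the WFS1 line and was called. A dimmer Col6a1 probe (mean 6.66) was at 0.02, not called. Under median scaling, which moved the median of all genes by -0.16, 2 collagens were higher and 2 lower.

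**Figure D2:**
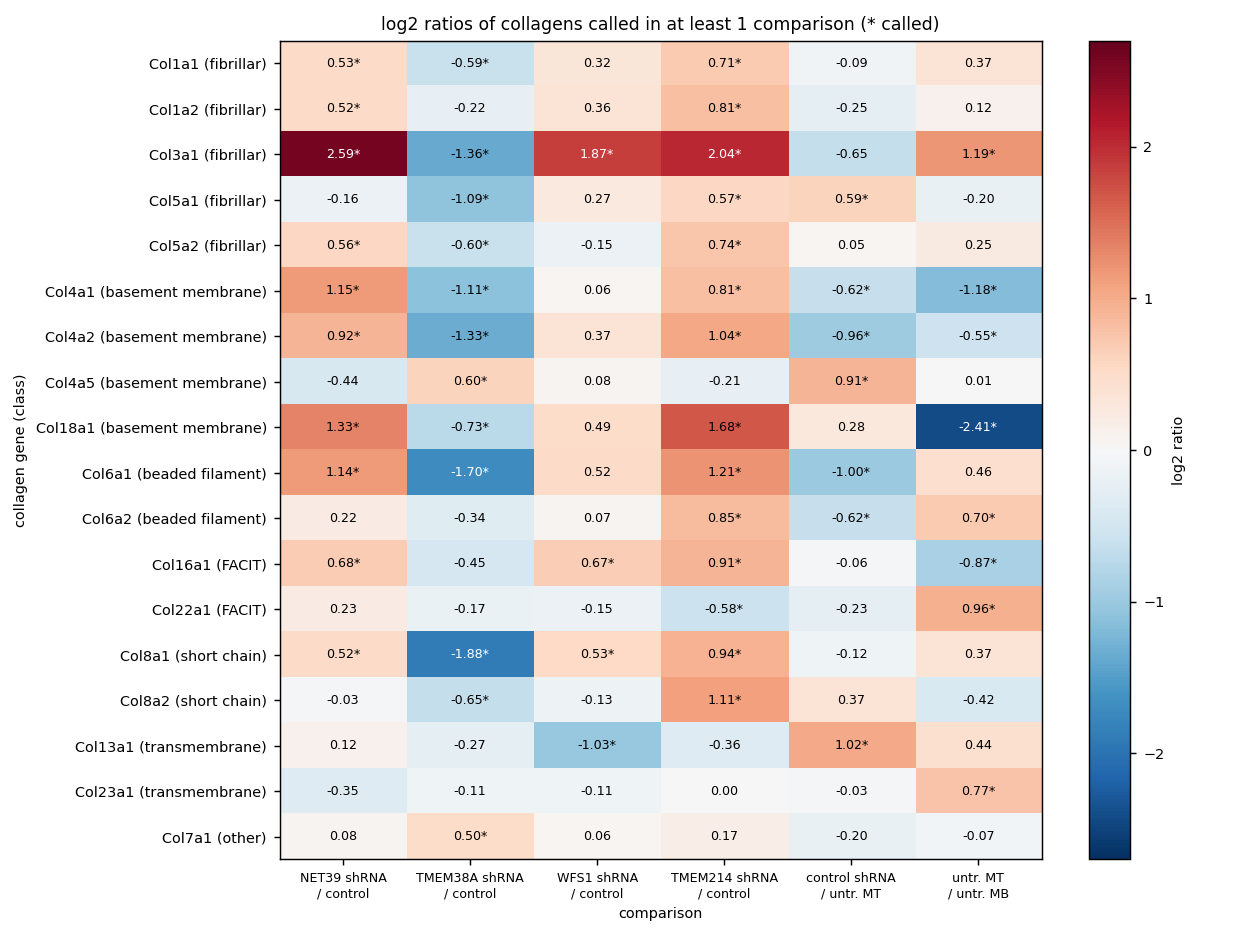
Log2 ratio (colour and number) of the 18 collagens called in at least 1 of 6 comparisons, by class, with an asterisk where called. The NET39 and TMEM214 columns hold mostly rises and the TMEM38A column mostly falls, and Col3a1 has the largest rise in 3 of the 4 knockdown columns.

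Set directly against each other, the TMEM38A line stood apart. Between NET39 and TMEM38A shRNA MTs 14 collagens were called, against 12.4% of all tested genes, between TMEM38A and WFS1 13 (8.98%) and between TMEM38A and TMEM214 14 (11.5%). NET39 and WFS1 differed in 5 (8.61%), WFS1 and TMEM214 in 7 (7.30%) and NET39 and TMEM214 in 4 (3.54%). The largest difference was that of Col3a1, higher in the NET39 than in the TMEM38A line by 3.95 (15.4-fold, adjusted p 9.56e-07). The lines with similar collagen changes still differed in single genes. Col8a2 had 7.47, 7.25 and 7.30 in NET39 shRNA MTs, against 8.41, 8.29 and 8.73 in TMEM214 shRNA MTs (-1.14, adjusted p 1.37e-05). Col22a1 had 7.48, 7.44 and 7.46 in NET39 shRNA MTs, against 6.67, 6.66 and 6.63 in TMEM214 shRNA MTs (0.81, adjusted p 8.18e-04). Col5a2 had 7.52, 7.29 and 7.25 in WFS1 shRNA MTs, against 8.12, 8.32 and 8.28 in TMEM214 shRNA MTs (-0.89, adjusted p 0.00158). In each of these the groups did not overlap.

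Among the 17 collagens called in any knockdown, 13 had their lowest mean of the 5 shRNA groups in the TMEM38A line, 11 their highest in the TMEM214 line and 4 in the NET39 line. These counts follow in part from the choice of genes, which took in the 10 called lower in the TMEM38A line and the 13 called higher in the TMEM214 line. For Col18a1 the order was TMEM214 (10.81), NET39 (10.47), WFS1 (9.63), control (9.14) and TMEM38A (8.41), and the neighbours TMEM214 and NET39 (0.34 apart) and WFS1 and control (0.49 apart) were not called different. For Col4a1 it was NET39 (9.43), TMEM214 (9.09), WFS1 (8.34), control (8.28) and TMEM38A (7.17), where neither NET39 and TMEM214 (0.34 apart) nor WFS1 and control were called different. For Col3a1 it was NET39 (10.96), TMEM214 (10.42), WFS1 (10.25), control (8.37) and TMEM38A (7.01), with no call among the first 3. Col4a5 ran the other way, from TMEM38A (8.39) through WFS1 (7.86), control (7.78) and TMEM214 (7.57) to NET39 (7.34), with control not called different from either neighbour.

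**Figure D3:**
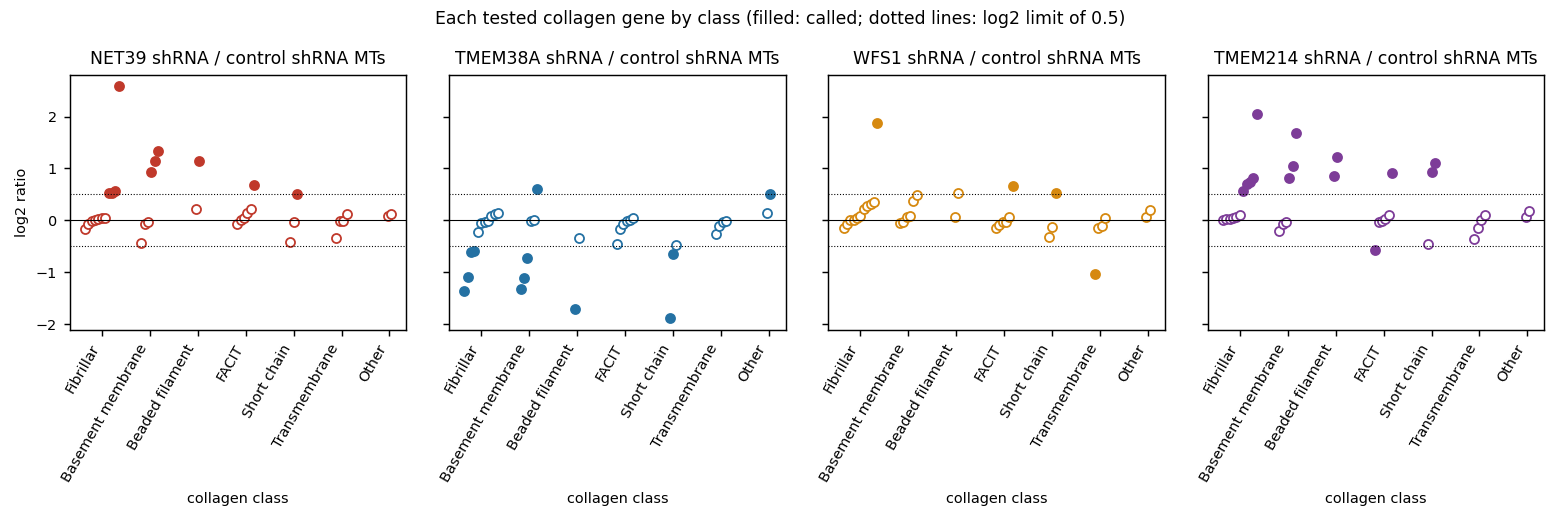
Log2 ratio over control MTs of each of the 34 tested collagens (points), by class, in the 4 knockdowns, filled where called. In the NET39, TMEM38A and TMEM214 panels most called genes are in the fibrillar, basement membrane, beaded filament and short-chain classes, and the other fibrillar genes lie near 0.

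By class, 4 of 11 fibrillar genes rose in the NET39 line, 5 in the TMEM214 line and 1 in the WFS1 line, and 4 fell in the TMEM38A line. All the called ones were chains of collagens I, III and V. The cartilage and minor fibrillar genes Col2a1, Col11a1, Col11a2, Col24a1 and Col27a1 and the third type V chain Col5a3 were called in no comparison with control, and the median of the whole class was near 0 (0.04, -0.05, 0.09 and 0.10 in the NET39, TMEM38A, WFS1 and TMEM214 lines).

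Of 6 tested basement membrane genes, 3 rose in the NET39 line, 3 rose in the TMEM214 line and 3 fell in the TMEM38A line, in each case Col4a1, Col4a2 and Col18a1. Col4a5 rose in the TMEM38A line. In the WFS1 line none was called, with Col18a1 at 0.49, just under the limit. Class medians were 0.44 (NET39), -0.37 (TMEM38A), 0.07 (WFS1) and 0.39 (TMEM214). Among classes with over 3 tested genes these were the largest in size in every line but WFS1. There the transmembrane (-0.13) and fibrillar (0.09) medians were larger. Beaded filament medians, of 2 genes, were larger in size in each line, at 0.68, -1.02, 0.29 and 1.03 in the same order. Short-chain medians, of 3 genes, were at -0.03, -0.65, -0.13 and 0.94, smaller in size than the basement membrane only in the NET39 line. Medians of the other collagens, of 2 genes, were at 0.10, 0.32, 0.13 and 0.12, larger only in the WFS1 line. Col4a4 and Col4a6 were at background on most arrays. FACIT and transmembrane genes other than Col16a1, Col22a1 and Col13a1 were not called in any knockdown. With 2 to 11 genes a class, no test between classes was made.

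Control and untransduced MTs also differed in collagens, where transduction cannot be told apart from the brightness of the arrays. Control shRNA MTs had 4 lower and 3 higher than untransduced MTs, against 4.15% lower and 4.28% higher over all tested genes, but under median scaling, which moved the median of all genes by 0.53, 0 were lower and 11 higher, and with background correction 4 were lower and 5 higher. Fibroblast and myotube markers summed lower in control than in untransduced MTs, and their part was not tested. Col13a1 had 7.89, 8.07 and 7.95 in control MTs, against 7.25, 6.81 and 6.79 in untransduced MTs (1.02, SE 0.09, adjusted p 1.43e-06). Col4a5 had 7.75, 7.88 and 7.72, against 6.87, 6.93 and 6.80 (0.91, SE 0.07, adjusted p 3.08e-07), and its second probe rose by 0.53.

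Col6a1 had 8.65, 8.15 and 8.45 in control MTs and 9.78, 9.93 and 8.54 in untransduced MTs, and the groups overlapped (-1.001, SE 0.27, adjusted p 0.0118). Col4a2 had 8.51, 7.97 and 8.33, against 8.56, 9.69 and 9.43 in untransduced MTs (-0.96, adjusted p 0.00256), and Col4a1 8.34, 8.22 and 8.29, against 8.86, 9.03 and 8.83 (-0.62, SE 0.09, adjusted p 6.73e-05). These 3 ratios turned positive under median scaling, at 0.18, 0.22 and 0.56, none called. Col6a2 had 7.01, 6.86 and 6.88 in control MTs and 7.25, 8.13 and 7.25 in untransduced MTs (-0.62, adjusted p 0.00814). Col5a1 rose by 0.59. Without untransduced MT replicate 1, 2 or control replicate 2 the call of Col6a1 was lost (adjusted p 0.0515 to 0.0708), without untransduced replicate 1 or control replicate 2 that of Col5a1 (0.35 and 0.54), and without untransduced replicate 2 that of Col6a2 (-0.33). With only these groups in the fit the calls of Col4a2 (adjusted p 0.0886), Col6a1 (0.134), Col6a2 (0.150) and Col5a1 (0.164) were lost, and as a mean of its probes Col6a2 was at -0.32.

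Each knockdown was therefore also set against untransduced MTs. Col3a1 stayed higher in the NET39 (1.94, adjusted p 0.00231), TMEM214 (1.39, adjusted p 0.0187) and WFS1 lines (1.23, adjusted p 0.0311) and lower in the TMEM38A line (-2.01, adjusted p 9.09e-04). Col18a1 stayed higher in the NET39 (1.61) and TMEM214 (1.95) lines, and Col8a1 (-2.002), Col6a1 (-2.71), Col4a2 (-2.29) and Col4a1 (-1.74) lower in the TMEM38A line. Col16a1 was called over untransduced MTs in every line, at 0.62 (NET39), -0.51 (TMEM38A), 0.61 (WFS1) and 0.85 (TMEM214). Over control MTs it was at -0.45 in the TMEM38A line, not called. In contrast Col4a2 and Col6a1 lay near the untransduced level in the NET39 line (-0.03 and 0.14, adjusted p 0.927 and 0.763) and in the TMEM214 line (0.08 and 0.21, adjusted p 0.830 and 0.632). Col4a1 was at 0.52 (NET39, adjusted p 3.58e-04) and 0.19 (TMEM214, adjusted p 0.133), and in the WFS1 line it was lower (-0.57, adjusted p 9.79e-05). In the TMEM38A line Col5a1 (-0.49), Col18a1 (-0.45), Col8a2 (-0.28) and Col7a1 (0.30) were not called over untransduced MTs. The same held for Col1a1 (0.44), Col1a2 (0.27) and Col8a1 (0.40) in the NET39 line. It also held for Col6a2 (0.23) in the TMEM214 line and Col8a1 (0.41) in the WFS1 line. Some of these missed only the log2 limit of 0.5. They were Col5a1 (adjusted p 0.0252) and Col18a1 (0.00311) in the TMEM38A line, Col1a1 (0.0212) in the NET39 line and Col8a1 (0.0351) in the WFS1 line.

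**Figure D4:**
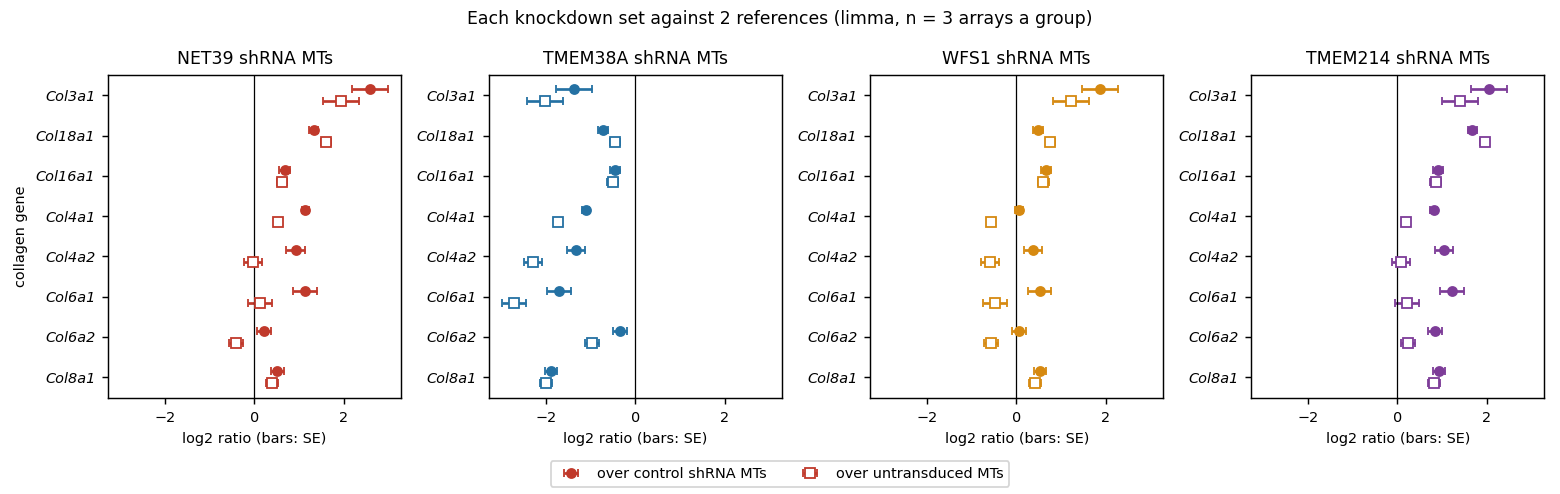
Log2 ratio and SE of 8 collagens in each knockdown over control shRNA MTs (filled circles) and over untransduced MTs (open squares), 3 arrays a group. Col3a1, Col18a1, Col16a1 and Col8a1 keep their side of 0 against both references in all 4 panels, while Col4a2 and Col6a1 lie near 0 against untransduced MTs in the NET39 and TMEM214 panels.

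In untransduced MTs over MBs, 4 collagens rose and 4 fell, where 11.5% of all tested genes were higher and 13.0% lower in MTs, a share near that of the collagens. Under median scaling 3 were higher and 6 lower. Col18a1 had 8.94, 8.98 and 8.67 in MTs, against 11.51, 11.28 and 11.04 in MBs, a log2 ratio of -2.41 (SE 0.11, 5.32-fold lower, adjusted p 3.10e-12). Its second probe fell by 1.11. Col4a1 had 8.86, 9.03 and 8.83 in MTs and 10.25, 10.05 and 9.95 in MBs (-1.18, SE 0.09, adjusted p 3.94e-09), and Col16a1 6.83, 7.37 and 7.12 in MTs and 8.16, 8.07 and 7.69 in MBs (-0.87, adjusted p 6.65e-06). All 3 were lower on every MT array.

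Col22a1 had 7.996, 7.22 and 7.18 in MTs and was not above background on any MB array, at least 1.82-fold higher in MTs (adjusted p 1.44e-05). Col23a1, a transmembrane collagen, had 6.82, 7.71 and 7.23 in MTs and was likewise not above background in MBs, at least 1.58-fold higher (adjusted p 1.31e-04). As means of all their probes these genes were at 0.47 and 0.48, below the limit. Col3a1 had 9.18, 9.28 and 8.62 in MTs, against 9.19, 7.25 and 7.07 in MBs (1.19, SE 0.40, adjusted p 0.0232). MB replicate 1, the array that stood apart, was at the MT level, and the groups overlapped. Without it the ratio was 1.87 (adjusted p 8.72e-06). With only MTs and MBs in the fit the adjusted p was 0.214, and without MB replicate 2 or 3 or MT replicate 1 or 2 the call was lost (adjusted p 0.0652 to 0.139). The second Col3a1 probe changed by 0.07.

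Col6a2 rose by 0.70 without overlap, and Col4a2 fell by 0.55 with overlapping groups. A second Col6a2 probe was at -0.12, not called, and the mean of the probes was at 0.29. With only MTs and MBs in the fit the adjusted p of Col6a2 was 0.0991, with control in place of untransduced MTs its ratio was 0.08 (adjusted p 0.724), and without MT replicate 2 it was at 0.40. Without MT replicate 1 Col4a2 was at -0.22 (adjusted p 0.242), and without MB replicate 2 or 3 it was at -0.60 and -0.41, not called. In MTs over MBs Col6a1 was at 0.46, not called. Another Col6a1 probe of similar brightness (mean 8.78 against 8.80) rose by 0.80 and was called. A dimmer Col6a1 probe (mean 6.66) was at 0.09, not called. Likewise Col8a1 was at 0.37, not called, while another Col8a1 probe (mean 8.56 against 8.76) rose by 0.89 and was called. Between 6 and 10 collagens were called with 1 array left out. Set beside the knockdowns over control MTs, Col18a1, Col4a1, Col4a2 and Col16a1 were lower in MTs than in MBs and higher in the NET39 and TMEM214 lines than in control MTs, and Col3a1 was higher in both. Levels of Col18a1 in NET39 (10.44 to 10.53) and TMEM214 MTs (10.77 to 10.86) lay between those of untransduced MTs (8.67 to 8.98) and MBs (11.04 to 11.51).

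Of 34 genes of collagen synthesis 29 were tested. In the NET39 line 3 rose and 2 fell, against 3.48% higher and 3.06% lower over all tested genes. Ppib, cyclophilin B of the prolyl 3-hydroxylase complex, had 10.40, 10.49 and 10.25 in NET39 shRNA MTs, against 9.44, 9.19 and 9.13 in control MTs (1.13, adjusted p 4.61e-07). Pcolce, which enhances procollagen trimming, rose by 1.01 and Plod2, a lysyl hydroxylase, by 0.61, and P4ha2, a prolyl 4-hydroxylase, fell by 0.57. None of these calls held over untransduced MTs, where Ppib was at 0.05, Pcolce at 0.21, Plod2 at 0.08 and P4ha2 at 0.12. In the TMEM214 line 7 rose and 1 fell, against 3.77% and 3.04%. Ppib had 10.48, 10.33 and 10.41, against the same control values (1.15, adjusted p 4.67e-07), Pcolce2 rose by 1.14, Pcolce by 0.97, and the coat protein gene Sec23a fell by 0.80. Without control replicate 3 or TMEM214 replicate 1 or 2 the call of Pcolce2 was lost (adjusted p 0.0507 to 0.0572). Over untransduced MTs Ppib (0.08), Pcolce2 (0.43), Pcolce (0.17) and Sec23a (-0.13) were not called in the TMEM214 line.

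In the TMEM38A line 0 rose and 5 fell, where 2.89% of all tested genes were higher and 4.06% lower. The 5 were P3h4, of the lysyl hydroxylation complex, by 0.76, the cross-linking enzyme Lox by 0.74, the collagen chaperone Serpinh1 by 0.73, the procollagen proteinase Bmp1 by 0.67, and Sparc by 0.66. Serpinh1 had 11.11, 11.09 and 11.03 in TMEM38A shRNA MTs, 12.54, 12.45 and 12.55 in TMEM214 shRNA MTs and 11.81, 11.63 and 11.98 in control MTs, and rose by 0.70 in the TMEM214 line. Bmp1 (0.71) and Sparc (0.62) rose there too. Over untransduced MTs Serpinh1 (0.42, adjusted p 0.0234, short of the log2 limit) and Sparc (0.18) were not called in the TMEM214 line, whereas Bmp1 stayed called. In the TMEM38A line Lox (-0.40) and Bmp1 (-0.37, adjusted p 0.0438, short of the log2 limit) were not called over untransduced MTs, whereas Sparc was (-1.10). The call of Lox was lost without replicate 3 of the control or TMEM38A arrays (adjusted p 0.0539 and 0.0779), and that of Sparc without control replicate 1 or TMEM38A replicate 3 (0.0530 and 0.0594), or in the TMEM214 line without control replicate 2 or TMEM214 replicate 3 (0.0912 and 0.101). In the WFS1 line 4 rose and 0 fell, against 3.11% higher and 2.91% lower over all tested genes, all of them hydroxylases: P4ha1 by 0.78, Plod2 by 0.75, P4ha2 by 0.71 and P3h2 by 0.56. Over untransduced MTs Plod2 was at 0.22 in the WFS1 line, not called, and P4ha2 at 1.40, called. Medians of the 29 genes were 0.05 (NET39), -0.24 (TMEM38A), 0.07 (WFS1) and 0.15 (TMEM214), with all genes within 0.02 of 0.

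In control over untransduced MTs 3 rose and 3 fell, against 4.28% higher and 4.15% lower over all tested genes, with Ppib down by 1.08 and Pcolce by 0.80, P4ha2 up by 0.69 and Sec23a up by 0.66. Under median scaling Ppib and Pcolce turned positive (0.27 and 0.46, not called). Ppib had 10.20, 10.35 and 10.43 in untransduced MTs, near the values of the NET39 and TMEM214 lines. In MTs over MBs 2 rose and 8 fell, where 11.5% of all tested genes were higher and 13.0% lower. Among those that fell were Pcolce (-1.94), Pcolce2 (-1.49), Crtap (-1.09), a partner of Ppib, and P4hb (-1.05), the shared subunit of the prolyl 4-hydroxylases. Pcolce2 had 7.77, 7.77 and 7.89 in MTs, against 10.52, 8.71 and 8.69 in MBs, with MB replicate 1 again apart. Without that array its ratio was -0.89 (adjusted p 7.92e-08), and with only MTs and MBs in the fit the adjusted p was 0.0817.

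**Figure D5:**
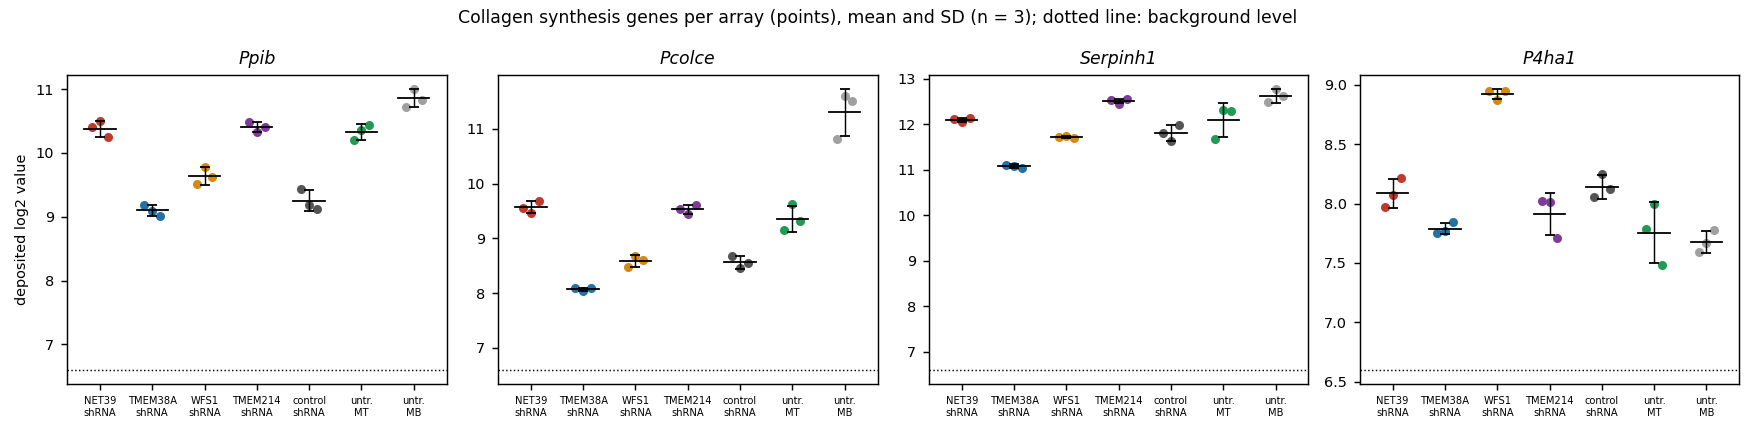
Deposited log2 values of 4 collagen synthesis genes on each array (points), with group mean and SD and the background level (dotted). Ppib and Pcolce of the NET39 and TMEM214 shRNA MTs lie at the level of untransduced MTs and above control MTs, Serpinh1 is lowest in the TMEM38A line, and P4ha1 is highest in the WFS1 line.

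Of 10 collagen receptor genes 6 were tested. Itga11, the collagen I integrin chain, averaged 6.52 in TMEM38A shRNA MTs, with no array above background, and 7.82 in control MTs (at least 2.33-fold lower, adjusted p 8.03e-06). It rose by 1.02 in the TMEM214 line (adjusted p 1.44e-04) and by 1.12 in MTs over MBs. Ddr1, a tyrosine kinase receptor for collagen, rose in the NET39 (0.68), TMEM38A (0.51) and myogenic (0.80) comparisons and fell by 1.02 in control over untransduced MTs, where Itgb1 rose by 0.82. The direction of Ddr1 depended on the MTs used as reference: over untransduced MTs Ddr1 was at -0.34 in the NET39 line and -0.51 in the TMEM38A line, in control MTs over MBs it was at -0.22, and under median scaling control over untransduced MTs gave 0.09. In the TMEM38A line its rise was also lost without replicate 2 of the control or TMEM38A arrays (0.49 and 0.44). Ddr2, Lair1 and Mrc2 were not called in these 6 comparisons.

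The other 16 tested collagens were called in none of the 6 comparisons. Many lay at the background level on most arrays, among them Col2a1 and Col9a2, of cartilage, Col11a1, Col14a1 and Col19a1, and a change in them may not have been detectable at this signal. Col26a1 (6.96 to 7.32 in all shRNA groups) and Col11a2 (6.66 to 6.93) were above background without being called. Col10a1, singled out after its values were seen, had 6.99, 7.00 and 6.97 in control MTs and 6.46 to 6.74 on every other array. It was not above background on any untransduced MT array, at least 1.31-fold higher in control MTs (adjusted p 2.46e-06), and was called with background correction or median scaling. The 7 collagens that did not pass were Col4a3, the kidney chain of collagen IV, Col15a1, a multiplexin of the basement membrane like Col18a1, Col6a4, Col6a5, Col6a6, Col9a3 and Col28a1.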

How the data were processed

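RNA of 21 C2C12 samples (7 groups of 3) was hybridised to Illumina MouseWG-6 BeadChips with 45281 probes. The labels number the replicates, and the methods call them biological. The authors quantile normalized the values, and the deposited log2 values were used as given (limma is named in the submitters' processing notes, version not given). Their medians were 6.59 on every array. The deposited scanner intensity table, per the file headers not normalized, was used only for alternatives, and holds no detection p, control probe or slide. Of the probes 34885 had 1 symbol, 18 several and 10378 none listed.

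A probe passed when above its array's background level (6.597 to 6.601, from the mode and the spread below it) on at least 3 arrays, which kept 28478 probes (62.9%). Each gene was read from its brightest probe. Group means were fitted over all 21 arrays with limma 3.58.1 in R 4.3.3, after lmFit and eBayes, and tested on simulated data first. The median SE of a log2 ratio was 0.0768, and only 3 arrays a group limit the precision. Calls needed a Benjamini-Hochberg adjusted p below 0.05 over 13769 genes together with a log2 ratio past 0.5 in size. "At least" folds are the brighter group's mean over the background level where no array of the dimmer group exceeded it. Values are given per array for up to 6 called collagens with the largest ratios in each comparison and up to 3 per pair of knockdowns, and up to 4 genes are named from the synthesis and receptor lists, with others of those lists added where a value was compared between lines. Members and lists were chosen with earlier results of these data known. Same-numbered samples deviated together in the comparisons of MTs with MBs (r 0.132 to 0.252), control with untransduced MTs (0.147 to 0.194) and NET39 with control MTs (0.182 to 0.266). No label gives a shared batch, and untransduced MT replicate 2 also deviated with MB replicate 3 (r 0.148), so a pairing by number is not settled. Alternatives were other background corrections, scalings, filters, probe rules, array weights, fits, thresholds and references, the replicate number as a block, and leaving out each array. Promoter sequences were those of RefSeq (GRCm38.p6).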

Additional observations from a re-analysis of the deposited data

Results flagged for a closer look

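Each pair of knockdowns was compared directly in the limma fit, and up to 3 collagens with the largest called difference in each pair are given here, since the effect over the same control arrays differed between the lines. Adjusted p-values are Benjamini-Hochberg values over all tested genes, from 3 arrays a group. The cause of these differences was not tested.

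Between NET39 and TMEM38A shRNA MTs, Col3a1 differed by 3.95 (adjusted p 9.56e-07), Col6a1 by 2.84 (adjusted p 3.82e-07) and Col8a1 by 2.40 (adjusted p 1.13e-09), all higher in the NET39 line. Between TMEM38A and WFS1 shRNA MTs the same genes were lower in the TMEM38A line, with Col3a1 at -3.24 (adjusted p 1.28e-05), Col8a1 at -2.41 (adjusted p 1.20e-09) and Col6a1 at -2.22 (adjusted p 8.90e-06). Between TMEM38A and TMEM214 shRNA MTs, Col3a1 was at -3.40 (adjusted p 5.02e-06), Col6a1 at -2.92 (adjusted p 2.63e-07) and Col8a1 at -2.82 (adjusted p 1.05e-10). These 3 pairs share the TMEM38A arrays.

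Between NET39 and WFS1 shRNA MTs, Col13a1 (1.15, adjusted p 8.22e-08), Col4a1 (1.09, adjusted p 6.85e-08) and Col18a1 (0.84, adjusted p 1.37e-05) were higher in the NET39 line. Between NET39 and TMEM214 shRNA MTs, Col8a2 (-1.14, adjusted p 1.37e-05) and Col5a1 (-0.72, adjusted p 0.00711) were lower and Col22a1 (0.81, adjusted p 8.18e-04) higher in the NET39 line. Between WFS1 and TMEM214 shRNA MTs, Col8a2 (-1.24, adjusted p 2.19e-06), Col18a1 (-1.19, adjusted p 3.25e-07) and Col5a2 (-0.89, adjusted p 0.00158) were lower in the WFS1 line.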

How the results depend on the processing

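Of 34 named log2 ratios recomputed under each alternative (640 values), 600 kept their direction and call, 36 kept the direction without the call and 4 reversed. The reversals were in control over untransduced MTs under median scaling, at 0.56 for Col4a1, 0.22 for Col4a2 and 0.18 for Col6a1, and for Col4a2 in NET39 shRNA MTs over untransduced MTs, at -0.034. Their cause was not tested.

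Collagens called in MTs over MBs numbered 8, and 13 with background correction at offset 16, 5 with only these groups in the fit, and 14 with no limit on the log2 ratio. In control over untransduced MTs they numbered 7, and 11 under median scaling and 3 with only these groups. In the NET39 line they numbered 10, and 6 over untransduced MTs. In the WFS1 line they numbered 4, and 7 with background correction at offset 50, 8 at offset 16, 7 with no limit and 8 over untransduced MTs. With each array left out in turn the counts were 6 to 10 for MTs over MBs, 5 to 7 for control over untransduced MTs, 6 to 10 for NET39, 9 to 11 for TMEM38A, 3 to 5 for WFS1 and 13 to 14 for TMEM214. The counts for TMEM38A, TMEM214 and the pairs of knockdowns (57) stayed within 1.5 times under every alternative run.

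All-gene counts moved further. With offset 16 they were 5237, 2324, 1783, 1886, 1697 and 1754 in MTs over MBs, control over untransduced MTs, NET39, TMEM38A, WFS1 and TMEM214, and with no limit 6089, 3075, 2290, 2399, 2244 and 2233, where the counts reported were 3383, 1160, 901, 957, 829 and 938. Under median scaling control over untransduced MTs had 6585, TMEM38A 1930 and WFS1 2404, over untransduced MTs TMEM38A had 1891 and WFS1 1572, and with probes averaged control over untransduced MTs had 751.

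With the replicate block the counts of collagens were unchanged (8, 7, 10, 12, 4, 14, and 57 over the pairs), and no call changed. Same-numbered samples did not deviate together throughout in the TMEM38A (r -0.149 to 0.349), WFS1 (-0.0967 to 0.222) and TMEM214 (-0.0608 to 0.439) comparisons. A block for the slide was not run, since the files used give no slide. Signal over background limits the dim collagens, whose ratios the uncorrected values shrink.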
